A study of Mus musculus with 12 samples.

Results

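The antiviral restriction genes are 10 genes, Mx1, Mx2, Bst2, Ifitm1, Ifitm2, Ifitm3, Rsad2, Cmpk2, Isg20 and Eif2ak2. They were chosen by gene symbol and not by their values, though with earlier results of these data known. All 10 were listed among the 18719 genes counted by RNA-seq in unstimulated or LPS-treated J774A.1 cells, a macrophage line of mouse origin. The 12 libraries formed 4 groups of 3, namely WT and ACAT1 KO cells without stimulation, and WT and ACAT1 KO cells given 100 ng/ml LPS for 2 hours. Both genotypes had been transfected with a Cas9 and GFP vector, which carried a guide to the fourth exon of Acat1 in ACAT1 KO cells and no guide in WT cells. After sorting on GFP, cells were grown from wells seeded with a few cells and are described in the study's methods as clonal. A legend of the study gives 3 different lines per genotype for the unstimulated comparison, while another legend gives 3 mice per group. No label ties a library to a clone, so the edit and other differences between clones cannot be told apart. In bulk RNA, fewer cells expressing a gene and less RNA per cell cannot be told apart either.

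Restriction factors are host proteins that block a virus at a defined step of its life cycle, such as fusion, genome copying or release. Most are made at a low level until type I interferon (T1IFN) binds its receptor, whereupon the kinases JAK1 and TYK2 switch on a transcription factor complex that binds interferon-stimulated response elements (ISREs) near their start sites. In macrophages LPS, the ligand of TLR4, leads to interferon-β production and to this gene programme.

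Library totals ran from 56948593 to 167280149 counts. Acat1 was 108, 107 and 80.8 CPM (counts scaled to library size) in WT and 28.9, 25.5 and 26.1 CPM in ACAT1 KO cells without stimulation, and 85.4, 95.4 and 65.0 against 19.9, 18.5 and 18.9 CPM after LPS, so all ACAT1 KO libraries lay below all WT libraries in both states. The 10 macrophage markers examined were all detected, with a summed level, most of it Lyz2, of 8948 to 9894 CPM in WT and 10125 to 11522 CPM in ACAT1 KO cells without stimulation. Adgre1 and Fcgr1 went the other way and were called lower in resting ACAT1 KO cells, at log2 fold changes of -0.78 (adjusted p = 0.0368) and -0.69 (adjusted p = 0.0124) by edgeR, with 0 to 2 markers called when a library was left out. After LPS edgeR called 1 of the 10 lower in ACAT1 KO cells, Fcgr1 at -1.07 (adjusted p = 0.00312). It called 3 higher, Cd14 at 0.40, Itgam at 0.48 and Spi1 at 0.26, and 2 to 5 markers when a library was left out. Over all genes, edgeR called 5.93% higher and 9.12% lower after LPS, and 1.17% lower without stimulation. Of the 6 T cell, 5 B cell, 5 fibroblast and 4 dendritic cell markers, 2, 1, 1 and 2 were tested in all 12 libraries, while Cd3e, Col1a1 and Flt3 were not among the genes tested. Over all libraries the tested markers of these types summed, in that order, to 5.24 to 11.1, 0.0305 to 0.938, 1.14 to 13.0 and 4.14 to 6.77 CPM. The fibroblast marker among them, Pdgfra, rose with LPS 4.16-fold in WT and 9.67-fold in ACAT1 KO cells, and after LPS was 1.99-fold higher in ACAT1 KO cells (adjusted p = 0.00247 by edgeR). The T cell marker Lck rose 1.62-fold and 1.84-fold with LPS. The part of these markers in the results was not tested. In 3 unstimulated libraries, WT 1, WT 2 and ACAT1 KO 2, noncoding genes that sit opposite to exons of another gene held 0.0308% to 0.0459% of counts, against at most 0.00977% in the other 9.

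Promoters of 300 bases, from 250 bases before to 50 after the start site, were taken from RefSeq (GRCm38.p6) for 8 of the genes, while Mx1 and Mx2 had no entry. The ISRE core GAAANNGAAA, searched on both strands, was found in 5 of the 8, against 3.99% of all 27025 genes in the table (3.44% of its 32851 promoters). The stretches of 30 bases that hold these matches are shown because this core is the motif the interferon-activated complex is known to bind; the matched letters are in capitals and every stretch is on the minus strand, read along the gene.
Ifitm2: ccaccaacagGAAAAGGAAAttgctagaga
Ifitm3: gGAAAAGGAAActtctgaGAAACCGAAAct
Bst2: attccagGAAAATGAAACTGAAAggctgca
Rsad2: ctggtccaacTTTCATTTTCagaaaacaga
Eif2ak2: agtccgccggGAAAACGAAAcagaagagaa
They lie at chr7:140955988-140956017 for Ifitm2, chr7:141010714-141010743 for Ifitm3, chr8:71537580-71537609 for Bst2, chr12:26456553-26456582 for Rsad2 and chr17:78882535-78882564 for Eif2ak2. Ifitm3 and Bst2 held 2 matches each, overlapping by 4 bases in Bst2. The Rsad2 match, 120 bases before the start, is the core read from the opposite strand. No match was found in the windows of Ifitm1, Cmpk2 or the 3 starts of Isg20. The second interferon motif, TTCNNNGAA, was found in windows of Isg20, Ifitm3, Bst2 and Eif2ak2, and in those of 9.55% of all genes. A match is a description of the letters and not evidence that a factor was bound.

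**Figure D1:**
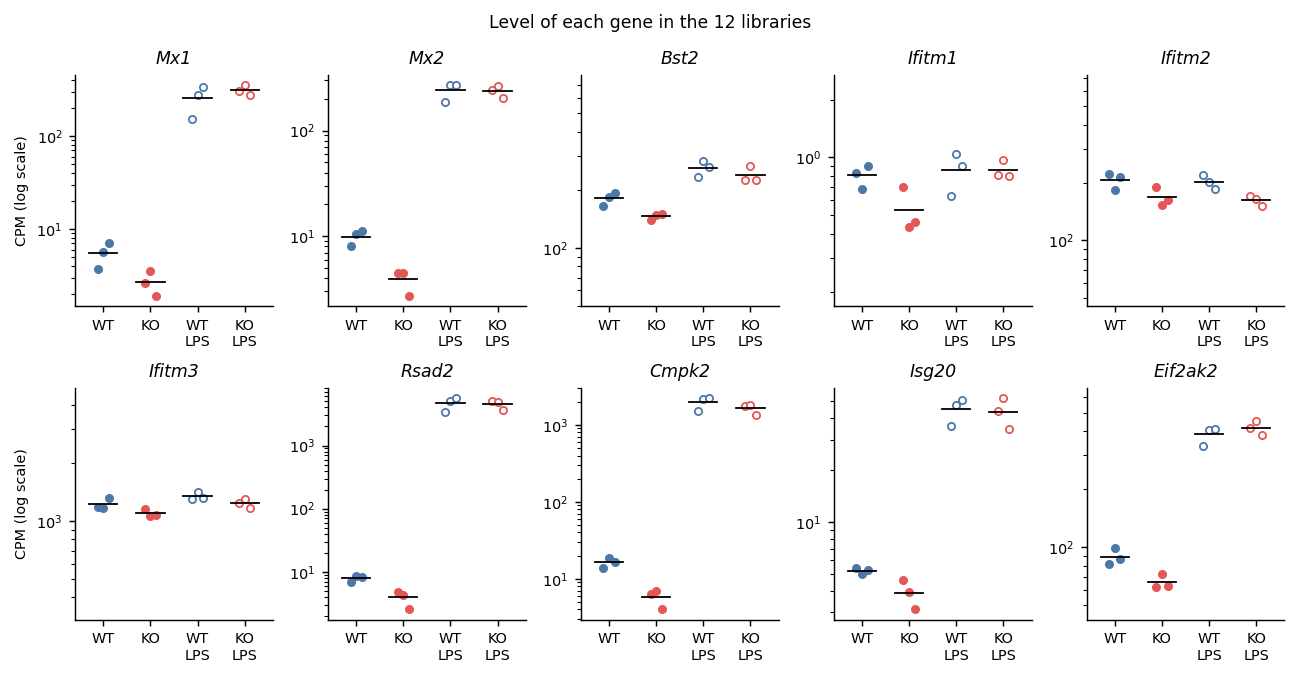
Level of each of the 10 genes in the 12 libraries, in CPM on a log axis that differs between panels. Each point is a library, filled without stimulation and open after LPS, blue for WT and red for ACAT1 KO (KO), and the line is the mean of 3. Rsad2 spans from 2.57 CPM in an unstimulated ACAT1 KO library to 5574 CPM in a WT library after LPS, while Ifitm2 and Ifitm3 stay within a narrow range.

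Unstimulated WT cells already held high levels of some of these genes. Per kilobase of exon, Ifitm3 was highest at 1795 ± 116 CPM per kb (SD, n = 3), followed by Ifitm2 at 314 ± 30.9 and Bst2 at 199.9 ± 16.3 CPM per kb. Eif2ak2 came next at 17.5 ± 1.78 CPM per kb, and the remaining 6 genes had means from 3.93 for Cmpk2 down to 0.737 CPM per kb for Ifitm1. Neighbours in this order did not overlap between libraries except Isg20 with Mx2 and Rsad2 with Mx1. After LPS the order in WT cells was Ifitm3 at 1983 ± 92.5, Rsad2 at 1076 ± 254 and Cmpk2 at 471 ± 95.6 CPM per kb, so that Rsad2 had moved from eighth to the second place. The neighbours Ifitm2 and Bst2, Eif2ak2 and Mx1, and Mx1 and Mx2 then overlapped.

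The first comparison asked whether loss of ACAT1 altered these genes in resting cells. All 10 were lower on average in ACAT1 KO than in WT cells, by log2 fold changes from -1.49 to -0.14 with a median of -0.51, beside a median of 0.0035 over all 16440 genes tested. Cmpk2 and Mx2 passed the threshold of an adjusted p under 0.05 (quasi-likelihood test of edgeR, Benjamini-Hochberg adjusted over all genes tested), where 1.17% of genes tested were called lower. With no adjustment, 8 of the 10 were lower at p under 0.05, against 9.93% of all genes. In 8 genes all ACAT1 KO libraries lay below all WT libraries, a pattern seen in 12.7% of all genes, and the exceptions were Ifitm1 and Ifitm2.

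**Figure D2:**
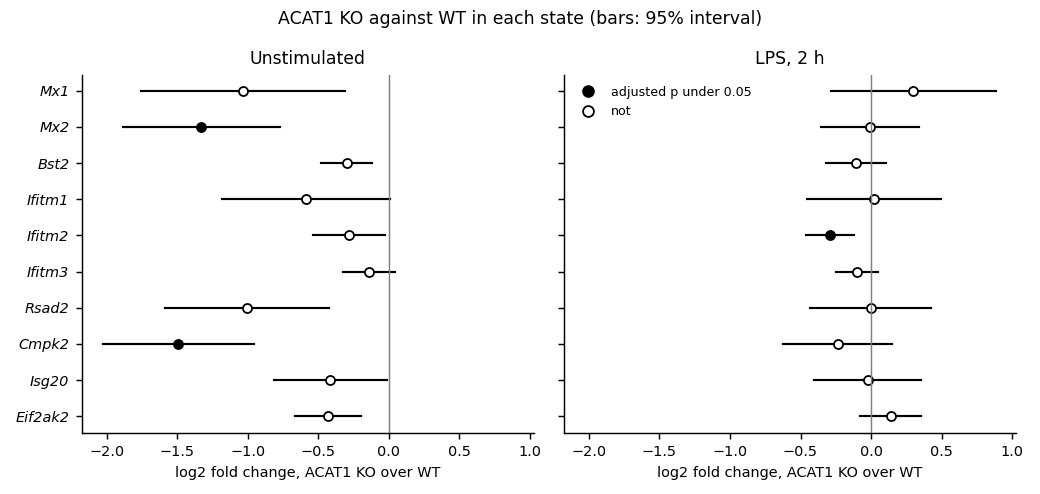
Log2 fold change of ACAT1 KO over WT for the 10 genes without stimulation (left) and after LPS (right). Points are estimates from edgeR, bars 95% intervals, and filled points passed an adjusted p under 0.05. All 10 points lie left of 0 without stimulation, from -1.49 to -0.14, and after LPS they lie on both sides, from -0.29 to 0.30.

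The Mx proteins are dynamin-like GTPases that trap viral nucleocapsids, Mx1 in the nucleus and Mx2 in the cytoplasm of mouse cells. They lie near each other on chromosome 16 of GRCm38, with Fam3b between them, Mx1 from 97447035 to 97462907 on the minus strand and Mx2 from 97535308 to 97560900 on the plus strand. The annotation calls Mx2 a polymorphic pseudogene, as its reading frame is broken in many laboratory strains. Whether Mx1 or Mx2 RNA encodes a working protein in J774A.1 cells was not examined. Mx2 was 8.04, 10.4 and 11.2 CPM in the 3 WT libraries and 4.47, 4.53 and 2.73 CPM in the 3 ACAT1 KO libraries. The groups did not overlap, and the level in ACAT1 KO cells was 39.8% of that in WT cells (log2 fold change -1.33, standard error 0.23, adjusted p = 0.0465). Mx1 was 3.76, 5.72 and 7.08 CPM in WT and 2.62, 3.50 and 1.92 CPM in ACAT1 KO cells. The lowest WT and the highest ACAT1 KO library were close, and the difference missed the threshold (log2 fold change -1.03, standard error 0.31, adjusted p = 0.135).

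Rsad2 encodes viperin, a radical SAM enzyme that converts CTP into a chain terminator of viral polymerases, and Cmpk2 is a mitochondrial kinase that phosphorylates CMP and UMP. They lie head to head on chromosome 12, Rsad2 from 26442746 to 26456452 on the minus strand and Cmpk2 from 26469204 to 26479837 on the plus strand, 12752 bases apart. Cmpk2 was 13.7, 18.9 and 16.5 CPM in WT and 6.30, 7.01 and 4.02 CPM in ACAT1 KO cells. The groups lay well apart, and Cmpk2 had the largest fall of the 10, to 35.5% of WT (log2 fold change -1.49, standard error 0.23, adjusted p = 0.039). Rsad2 was 7.0, 8.47 and 8.36 CPM in WT and 4.87, 4.35 and 2.57 CPM in ACAT1 KO cells, without overlap. It missed the adjusted threshold by edgeR (log2 fold change -1.01, standard error 0.25, adjusted p = 0.0934). The other 583 genes tested on chromosome 12 had a median log2 fold change of -0.26, with 38 called lower and 0 higher. With that median subtracted, Cmpk2 was -1.23 and Rsad2 -0.75; the part of the chromosome in the result was not tested.

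Eif2ak2 encodes PKR, a kinase that senses double-stranded RNA and halts translation by phosphorylating eIF2α, and Isg20 is an RNA exonuclease. Eif2ak2 (chromosome 17, 78852564 to 78882573, minus strand) was 81.7, 99.5 and 87.2 CPM in WT and 62.1, 72.6 and 62.8 CPM in ACAT1 KO cells (log2 fold change -0.43, standard error 0.099, adjusted p = 0.0807). Isg20 (chromosome 7, 78913424 to 78920396, plus strand) was 5.39, 4.97 and 5.23 CPM in WT and 4.58, 3.92 and 3.12 CPM in ACAT1 KO cells (log2 fold change -0.42, standard error 0.17, adjusted p = 0.241). Neither group pair overlapped, and neither gene passed the adjusted threshold. Small genes on the opposite strand, n-R5s29 and Gm26637, share 221 exon bases with Eif2ak2, and since strand in the counting was not stated, reads there cannot be told apart.

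Bst2, or tetherin, holds budding virions at the cell surface, and the IFITM proteins sit in membranes and hinder fusion. Bst2 (chromosome 8, 71534255 to 71537456, minus strand) was 164, 184 and 193 CPM in WT and 139.6, 148 and 149.8 CPM in ACAT1 KO cells (log2 fold change -0.30, standard error 0.077, adjusted p = 0.105). The IFITM genes lie together on chromosome 7, Ifitm2 from 140954837 to 140955987, Ifitm1 from 140967221 to 140969825 and Ifitm3 from 141009586 to 141010770. Ifitm3 was 1182, 1162 and 1307 CPM in WT and 1156, 1062 and 1071 CPM in ACAT1 KO cells, the smallest difference of the 10 (log2 fold change -0.14, standard error 0.077, adjusted p = 0.368). Ifitm2 was 220.3, 183 and 214 against 189, 153 and 162 CPM, and Ifitm1, under 1 CPM in all 6 libraries, 0.835, 0.687 and 0.898 against 0.702, 0.435 and 0.463 CPM. Both overlapped between genotypes and missed the threshold, with log2 fold changes of -0.28 and -0.59. Ifitm2 shares 268 exon bases with Gm45717 on the same strand, and near-identical stretches within the family could have split reads, so its counts are uncertain to that extent.

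The calls in resting cells rested on all libraries being present. Leaving out any single library ended the call of Mx2 (adjusted p from 0.0681 to 0.169 by edgeR), and leaving out any library except WT 3 ended that of Cmpk2 (0.0728 to 0.137), while both stayed lower in all these fits, with log2 fold changes from -1.47 to -1.13 and from -1.66 to -1.29. DESeq2 called 6 of the 10 lower, adding Mx1, Rsad2, Bst2 and Eif2ak2, where it called 907 of all 16440 genes lower. Within the 3 libraries with more of these opposite-strand counts, ACAT1 KO minus WT was -1.20 for Cmpk2 and -1.01 for Mx2 (difference of mean log2 CPM), and within the other 3 it was -1.71 and -1.68. The median over the 10 genes was -0.40 and -0.56, and all 10 were lower in both sets. Without the 3 libraries, which left 1 WT library assumed to vary like the other groups, 0 of the 10 were called, with Cmpk2 at -1.68 (adjusted p = 0.0686) and Mx2 at -1.64 (adjusted p = 0.0728).

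After 2 hours of LPS, 8 of the 10 genes overlapped between the genotypes in CPM normalized over 12 libraries. Of the 10, 7 were lower and 3 higher in ACAT1 KO cells, with a median log2 fold change of -0.016 beside -0.0041 over all 16483 genes tested. Ifitm2 was the single call, and 9.12% of all genes were called lower. It was 218, 200.3 and 185 CPM in WT and 169, 165 and 150.2 CPM in ACAT1 KO cells, 81.6% of WT (log2 fold change -0.29, standard error 0.074, adjusted p = 0.0342). Leaving out any library except WT 3 ended this call (adjusted p from 0.0594 to 0.119). Ifitm3, 1302, 1417 and 1315 against 1243, 1298 and 1169.5 CPM, was the other gene without overlap on this scale. With CPM normalized within the 6 LPS libraries Ifitm3 did overlap. On that second scale 19.7% of all genes had every ACAT1 KO library below every WT library.

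In the genes that LPS raised most, the genotypes differed by less than the spread between libraries. Rsad2 was 3441, 4976 and 5574 CPM in WT and 5152, 4909.7 and 3704 CPM in ACAT1 KO cells, which is -0.0037 on the log2 scale with a 95% interval from -0.43 to 0.43. Cmpk2 was 1501, 2163 and 2215 against 1775, 1812 and 1334 CPM (-0.24, interval -0.62 to 0.15). Mx2 was 185, 268 and 269.6 against 243, 264 and 203 CPM (-0.0079, interval -0.36 to 0.34). All 3 genes overlapped between genotypes, and for Mx2 the interval reaches from 0.781-fold to 1.27-fold of WT. Mx1 was 151, 275 and 339 CPM in WT, a coefficient of variation of 37.6% that was the highest of the 10 genes in any group, and 304, 353 and 273 CPM in ACAT1 KO cells (0.30, interval -0.28 to 0.88). Eif2ak2 was 337, 408 and 410.2 against 418, 455 and 381 CPM and Isg20 36.0, 47.9 and 51.2 against 44.2, 52.1 and 34.8 CPM. Bst2 was 232, 282 and 264 against 224, 264 and 224 CPM and Ifitm1 0.633, 1.04 and 0.899 against 0.815, 0.975 and 0.800 CPM, and these 4 genes overlapped as well. The directions of Rsad2, Mx2, Isg20 and Ifitm1 after LPS turned with the normalization or with a library left out. On chromosome 12 the median of the other genes was -0.28, and with it subtracted Cmpk2 was 0.046 and Rsad2 0.28.

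The response to LPS itself divided the genes. In WT cells 7 of the 10 rose, where 29.3% of the 16535 genes in both tables were called higher, and in ACAT1 KO cells 9 rose, against 29.5%. Rsad2 rose 586-fold in WT (log2 fold change 9.20, standard error 0.31, adjusted p = 8.48e-10) and 1167-fold in ACAT1 KO cells (log2 fold change 10.19, standard error 0.33, adjusted p = 4.21e-10). Its log2 fold change ranked 6th of all genes from the top in WT and 5th in ACAT1 KO cells. From at most 0.000975% of all counts without stimulation, Rsad2 came to hold 0.302% to 0.504% in WT and 0.342% to 0.458% in ACAT1 KO cells. Cmpk2 rose 119.8-fold in WT and 285-fold in ACAT1 KO cells, Mx1 45.8-fold and 116-fold, and Mx2 24.3-fold and 60.7-fold. These 4 were more than 8-fold higher in both genotypes together with Isg20 (8.66-fold and 11.3-fold), a size reached by 1.34% of genes in WT and 1.7% in ACAT1 KO cells.

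Eif2ak2 rose 4.30-fold in WT and 6.35-fold in ACAT1 KO cells, and Bst2 1.44-fold and 1.63-fold. Ifitm2 and Ifitm3 formed the other end in both genotypes, and Ifitm1 joined them in WT cells. Ifitm2 had log2 fold changes of -0.035 in WT and -0.058 in ACAT1 KO cells, with 95% intervals from -0.25 to 0.18 and -0.27 to 0.16. Over 8 alternative settings its value in WT cells ran from -0.24 to -0.033, and in 1 of them it was called lower. Ifitm3 passed the threshold in ACAT1 KO cells (log2 fold change 0.17, standard error 0.07, adjusted p = 0.0469) and not in WT cells (log2 fold change 0.14, standard error 0.07, adjusted p = 0.097). Ifitm1 did likewise, with 0.69 (adjusted p = 0.0255) in ACAT1 KO and 0.089 (adjusted p = 0.774) in WT cells, from levels at or under about 1 CPM. By edgeR neither gene's response was called different between the genotypes. Under upper-quartile normalization, which moved the median of all genes to -0.23 in WT and -0.17 in ACAT1 KO cells, both calls in ACAT1 KO cells ended and Ifitm1 and Ifitm3 turned lower in WT cells. Leaving out ACAT1 KO replicate 2 or 3 without stimulation, or ACAT1 KO replicate 2 after LPS, ended both calls too, and leaving out ACAT1 KO replicate 1 or any WT replicate after LPS ended that of Ifitm3; adjusted p was then 0.0832 to 0.0875 for Ifitm1 and 0.0511 to 0.165 for Ifitm3.

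**Figure D3:**
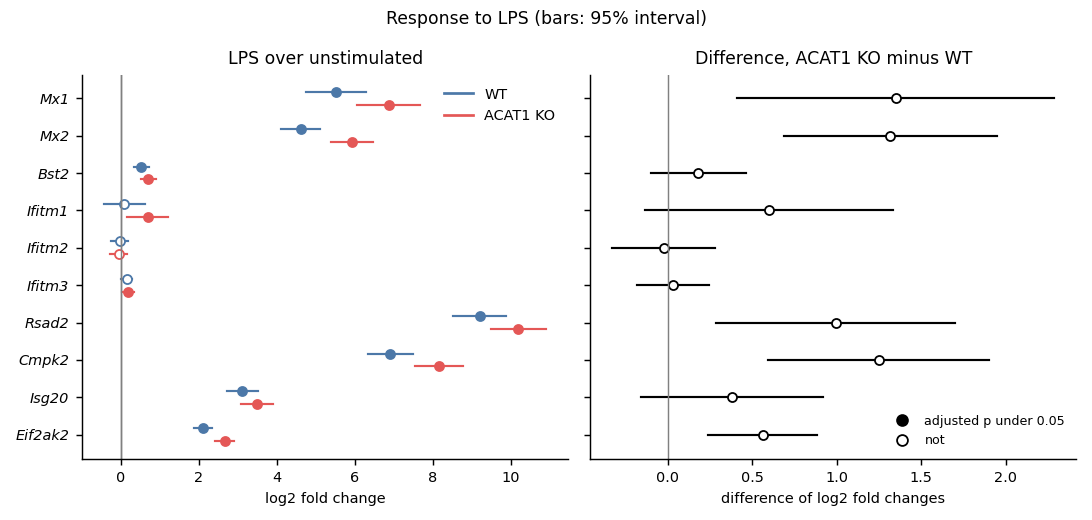
Left, log2 fold change of LPS over unstimulated cells in WT (blue) and ACAT1 KO (red); right, the difference between those responses, ACAT1 KO minus WT. Bars are 95% intervals and filled points passed an adjusted p under 0.05. Rsad2 lies furthest right in both genotypes, at 9.20 and 10.19. No difference in the right panel is filled in this fit, which took the libraries as unpaired.

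Whether the response differed between genotypes was tested as an interaction over the 12 libraries, which use the same unstimulated and LPS libraries as the comparisons above. By edgeR 0 of the 10 passed the adjusted threshold, where 0.0484% of genes were called with a larger response in ACAT1 KO cells. Before adjustment, 5 genes reached p under 0.05 with a larger response in ACAT1 KO cells, against 3.28% of all genes. In log2 units, with the interval and the adjusted p, they were Mx1 (1.35, 95% interval 0.41 to 2.29, adjusted p = 0.293), Mx2 (1.32, 0.69 to 1.95, 0.102), Cmpk2 (1.25, 0.59 to 1.90, 0.13), Rsad2 (0.99, 0.29 to 1.70, 0.306) and Eif2ak2 (0.56, 0.24 to 0.89, 0.174). DESeq2 called Mx2, Cmpk2, Rsad2 and Eif2ak2 at adjusted p from 0.000423 to 0.04, among 141 of 16535 genes called with a larger response. Limma-voom called 0 of the 10. With libraries of a genotype and number taken as paired, edgeR called the 5 genes above at adjusted p from 0.00366 to 0.0182. It then called 138 of 16535 genes with a larger response in ACAT1 KO cells. No label states that pairing, and these calls had been seen when the libraries were treated as unpaired. Of the marker genes, Pdgfra at 1.22 (adjusted p = 0.0383) and Adgre1 at 0.83 (adjusted p = 0.0423) were called with a larger response in ACAT1 KO cells by edgeR, and single libraries left out ended each call. Ifitm2 and Ifitm3 had differences of -0.023 and 0.03, with intervals from -0.33 to 0.28 and -0.18 to 0.25. Ifitm1 had a difference of 0.60 (95% interval -0.13 to 1.335, adjusted p = 0.674 by edgeR).

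Other antiviral effectors of the interferon programme were set beside the 10 genes. Of 27 tested without stimulation, 7 were called lower and 0 higher in ACAT1 KO cells, with a median log2 fold change of -0.57. Of all genes, 1.17% were called lower there. The smallest p-values belonged to Oas3 at -1.22 (adjusted p = 0.0265), Oas2 at -1.19 (adjusted p = 0.0286) and Oas1a at -0.63 (adjusted p = 0.0441), members of a family that senses double-stranded RNA and makes short oligoadenylates. With a single library left out, 0 to 3 of the list were called. After LPS 1 of 28, Ifi27 at 0.67 (adjusted p = 0.0309), was called higher and 2, Zc3hav1 at -0.23 (adjusted p = 0.0352) and Oas2 at -0.43 (adjusted p = 0.0419), lower, around a median of 0.071. Over all genes, 5.93% were called higher and 9.12% lower in that comparison. LPS raised 25 of 28 in each genotype and lowered 1. It raised 29.3% of all genes in WT and 29.5% in ACAT1 KO cells.

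**Figure D4:**
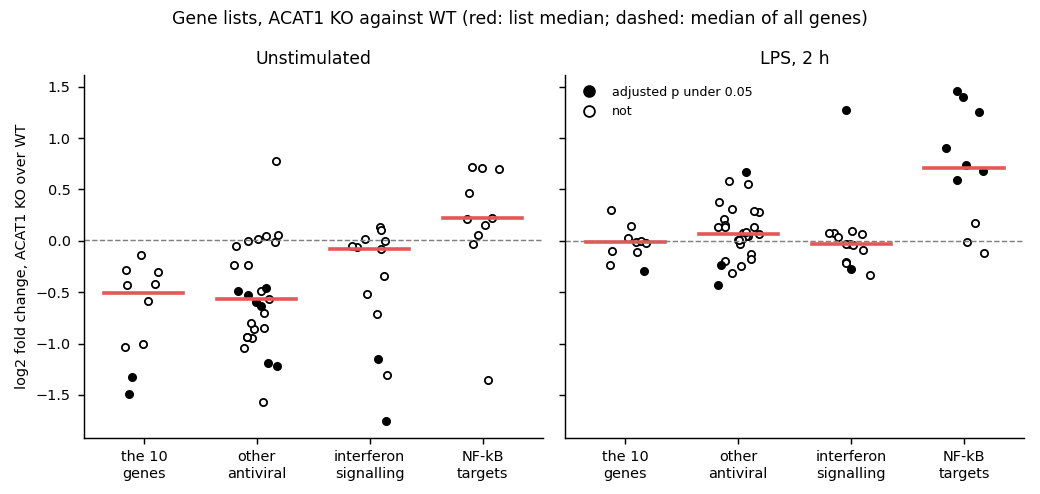
Log2 fold change of ACAT1 KO over WT for the genes of 4 lists, without stimulation (left) and after LPS (right). Each point is a gene, filled where the adjusted p was under 0.05; the red line is the list's median and the dashed line the median of all genes. The medians of the 10 genes and of the other antiviral genes lie at -0.51 and -0.57 on the left and at -0.016 and 0.071 on the right.

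Among 13 interferon signalling genes tested without stimulation, 2 were called lower in ACAT1 KO cells and 0 higher. The share of all genes called lower was 1.17%. Usp18, a feedback inhibitor at the interferon receptor, was at -1.76 (adjusted p = 0.0215) and Stat2 at -1.15 (adjusted p = 0.0344), while Irf7 at -1.31 (adjusted p = 0.0766) missed the threshold. The list's median was -0.084. After LPS 1 of 14 was called lower, the receptor chain Ifnar1 at -0.28 (adjusted p = 0.0197), and 1 higher, the interferon-β gene Ifnb1 at 1.27 (adjusted p = 0.0312). The shares of all genes were 9.12% lower and 5.93% higher. Without WT 2, ACAT1 KO 1 or ACAT1 KO 3, 0 of the list were called in resting cells, and without WT 1 or ACAT1 KO 2, 1 was; after LPS 0 to 5 were called, with 0 without WT 2, ACAT1 KO 1 or ACAT1 KO 2 and 5 without WT 1. Ifnb1 was listed only in the table of LPS libraries. Of 10 NF-kB targets, 0 were called without stimulation by edgeR (before adjustment 3 were higher and 1 was lower at p under 0.05), and 7 were called higher after LPS, where 5.93% of all genes were, Il6 at 1.40 (adjusted p = 0.0126) and Il1b at 1.46 (adjusted p = 0.013) among them, around a median of 0.71. With a library left out, 2 (without ACAT1 KO 1) to 6 of them were called after LPS.

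Genes next to the 10 on the chromosome were examined for the same contrasts. Without stimulation Mfge8, the nearest listed gene on the higher side of Isg20 but 213372 bases away, was called at -0.48 (adjusted p = 0.039). Aen, 2215 bases from Isg20 on the lower side, was 0.26 (adjusted p = 0.117). Gm6548, 608 bases from Eif2ak2 on the same strand, was -0.45 (adjusted p = 0.114) in resting cells and rose with LPS by 1.29 (adjusted p = 1.61e-06) in WT cells; reads that run on from Eif2ak2 cannot be told apart from its own. Fam3b, 8058 bases from Mx1, was -0.10 (adjusted p = 0.924), and Gm46344, 6068 bases from Cmpk2, -0.16 (adjusted p = 0.727). The genes between and beside Ifitm1 and Ifitm3 included Gm7514 at -1.12 (adjusted p = 0.202) and Ifitm6 at 0.23 (adjusted p = 0.389).

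The mean standardised log2 CPM of the 10 genes was compared with every other gene of at least 1 CPM on average, as a description. Over the 12 libraries the most alike were Apol9a (r = 0.988), Oas1a (r = 0.986), Gm18445 (r = 0.986), Nampt (r = 0.984) and Phf11c (r = 0.983). Over the 6 unstimulated libraries they were Phf11c (r = 0.997), Epsti1 (r = 0.992), Prorp (r = 0.991), Tcf7l2 (r = 0.990) and Map3k5 (r = 0.990). These libraries share their groups, and the 5 were the highest of 11952 and 11965 genes. Within the 10, Pearson's r of a gene with the mean of the other 9 over the 12 libraries was lowest for Ifitm2 at 0.075 and at least 0.718 for the rest.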

How the data were processed

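RNA-seq was carried out on 12 libraries of J774A.1 macrophages, WT or ACAT1 KO, and the labels gave each its group and number. Per the study's methods, libraries were made with a directional kit, and the authors trimmed reads with Trimmomatic (0.33 in the submitters' processing notes), aligned them to GRCm38 with HISAT2 and quantified genes with StringTie. Counts were deposited by the authors as whole numbers, not normalized, in 1 table per state; the step that gave whole counts, and whether it used strand, is not given in the sources used here. The deposited tables also hold the authors' log2 values per library in 12 columns, and their log2 fold changes, test statistics and p-values, none of which were used.

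Repeated entries (59 without stimulation, 57 after LPS) were removed, leaving 17544 and 17874 genes. Listed genes reached 4 counts in 5 or more of the 6 libraries of a state, so silent genes can be missing. All 10 members passed the filters below in both states. The members and the gene lists were chosen with earlier results of these data known. The tests ran in edgeR 4.0.16 under R 4.3.3 (filterByExpr, TMM, quasi-likelihood test, two-sided, Benjamini-Hochberg adjustment over all genes tested, threshold 0.05). Genotypes were compared within each state over 6 libraries, and the response to LPS and its interaction with genotype over 12 libraries and the genes of both tables. Printed CPM and the overlaps of the 10 genes use the normalization over 12 libraries. Shares of all genes without overlap use the normalization within each state. Lengths for CPM per kb, and coordinates, are from the GENCODE annotation of GRCm38. Named were all 10 members, at most 4 genes of a list with the smallest p, neighbouring and family genes, and the 5 genes most like the members (log2 of CPM plus 0.1). Values of a few genes of the lists are not reported here. Within-set differences used log2 of CPM plus 0.01. The tests were tried on simulated counts. Pairs of libraries of a group differed by more than sampling noise (for the 12 pairs, a chi-square of 33.5 or more for each degree of freedom). With at least 56948593 counts per library, the spread between libraries limits precision for all but Ifitm1, which had 40 to 136 counts. No label says whether unstimulated and LPS libraries of a number are the same culture, nor whether libraries of a group are separate clones. The study's legends differ, with 3 different lines per genotype in one and 3 mice per group in another. The p-values therefore measure only the spread between these libraries, which may be technical.

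Alternatives were DESeq2 1.42.0, limma-voom (limma 3.58.1), upper-quartile normalization and relative log expression, no filter, at least 10 counts in every library, all 12 libraries in 1 fit, a replicate block, a term for the 3 libraries with more opposite-strand counts, subtraction of the chromosome's median and each library left out in turn. Leaving out those 3 libraries together was added after the data were seen.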

Additional observations from a re-analysis of the deposited data

How the results depend on the processing

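For ACAT1 KO against WT without stimulation, the 314 genes called became 1721 with DESeq2, 475 with at least 10 counts in every library, 664 with the term for 3 libraries, 1353 with all 12 libraries in a single fit and 52 without the 3 libraries; the 2 members called became 6, 2, 2, 4 and 0. With a library left out, 7 to 522 genes and 0 to 1 members were called. After LPS, all 12 libraries in a single fit called 0 members, and leaving out a library gave 867 to 2245 genes and 0 to 1 members. For LPS over unstimulated cells, leaving out a library gave 8636 to 9676 genes and 7 to 8 members in WT, and 8978 to 10224 genes and 7 to 9 members in ACAT1 KO cells. For the interaction, the 31 genes and 0 members became 333 and 4 with DESeq2, 11 and 0 with limma-voom, and 2 and 0 without the 3 libraries, and 2 to 41 genes and 0 members with a library left out. The cause was not tested. Upper-quartile normalization turned the split of WT genes called after LPS from 4850 higher and 4638 lower to 3628 and 6681, and in ACAT1 KO cells from 4871 and 5166 to 3921 and 6560; after LPS it turned the split between genotypes from 977 and 1504 to 1190 and 1288.

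The replicate block was fitted although the numbers were not taken to pair the samples. Over all 16535 genes, the set checked first, deviations of unstimulated and LPS libraries of a number correlated from 0.0913 to 0.307, so that 1 of 6 pairs was under 0.1; over the 11961 genes of at least 1 CPM, checked afterwards, they correlated from 0.139 to 0.454. In both sets every library correlated best with its own number (other numbers at most 0.0976), a hint from the data and not from the labels. Calls with the block had been seen by the time this was decided. With genotype and number as a block the interaction called 288 genes and 5 members, Mx1, Mx2, Cmpk2, Rsad2 and Eif2ak2, at adjusted p from 0.00366 to 0.0182. WT and ACAT1 KO libraries of a number correlated from -0.337 to 0.65, and that block called 151 genes and 2 members without stimulation, Cmpk2 and Eif2ak2.

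Values that turned sign passed no threshold in the reported fits and, apart from Cmpk2 after LPS, were small. Subtracting the chromosome's median after LPS turned Cmpk2 from -0.24 to 0.046 and Rsad2 from -0.0037 to 0.28. For the interaction the subtraction turned Ifitm2 from -0.023 to 0.025. After LPS, ACAT1 KO over WT became 0.0031 for Rsad2 with DESeq2, 0.017 with limma-voom, 0.0031 with relative log expression, 0.026 with upper quartiles, 0.000357 without a filter and 0.012 with the replicate block; Mx2 became 0.0069 with limma-voom, 0.021 with upper quartiles and 0.0053 with the block, and Isg20 0.0042 with upper quartiles. With a library left out, Rsad2 ran from -0.18 to 0.15, Mx2 from -0.17 to 0.095, Isg20 from -0.17 to 0.12 and Ifitm1 from -0.14 to 0.18. For LPS over unstimulated WT cells, upper quartiles gave -0.12 for Ifitm1 and -0.065 for Ifitm3, and leaving out the 3 libraries -0.084 for Ifitm1; with a library left out Ifitm1 ran from -0.072 to 0.26 and Ifitm2 from -0.11 to 0.023, and in ACAT1 KO cells Ifitm2 from -0.12 to 0.035. For the interaction, Ifitm2 became 0.037 with upper quartiles and 0.012 without the 3 libraries, and with a library left out it ran from -0.087 to 0.0703 and Ifitm3 from -0.024 to 0.088. Where leaving out a library left an arm with 2 samples, the spread came from the remaining libraries of the fit.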

Other observations

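Relatives of the 10 genes that the symbol list did not hold were examined as well. Ifitm6, of the IFITM cluster, was 64.2, 45.4 and 59.7 CPM in unstimulated WT cells and 51.1, 38.0 and 40.7 CPM after LPS, and fell by 0.38 on the log2 scale in WT (adjusted p = 0.0232 by edgeR) and by 0.47 in ACAT1 KO cells (adjusted p = 0.00779). Ifitm5, known from bone-forming cells, had 27 to 147 counts per library and a log2 fold change of -1.38 (adjusted p = 0.0764) between genotypes without stimulation. Ifitm10 was at most 0.162 CPM, and Ifitm7 was not tested over the 12 libraries. Isg20l2, a nucleolar relative of Isg20, was 63.3, 63.0 and 64.7 CPM in unstimulated WT cells and rose with LPS by 0.88 (adjusted p = 3.16e-08) in WT and 0.78 (adjusted p = 6.98e-08) in ACAT1 KO cells. Aen, an apoptosis-linked nuclease beside Isg20, rose by 1.68 (adjusted p = 7.70e-09) and 1.46 (adjusted p = 1.70e-08).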
